A study of Mus musculus with 8 samples.

Results

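Semaphorins, plexins and neuropilins are the ligands and receptors of 1 family of cell guidance cues, and 31 of their genes were measured among the 19356 genes read from the arrays. The 31 are 20 semaphorins, 9 plexins and 2 neuropilins, taken by symbol, with the probe set of highest mean signal over the 8 arrays kept for each gene. That mean chose the probe set and is given as a description only. RNA came from the caudal part of the urogenital ridge, the strip of mesoderm that forms the kidney and gonad, of untreated mouse embryos at E10.75 on a mixed genetic background. The groups were Sox11-/- (knockout) and wild type, with 4 independent replicates each, and neither the design of the Sox11 allele nor whether a replicate pooled embryos is given in the sources used here.

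Semaphorins carry a sema domain and are secreted (class 3), membrane-anchored (classes 4 to 6) or tethered by a lipid anchor (class 7). Plexins are their signalling receptors and act on small GTPases and the cytoskeleton. Neuropilins bind most class 3 semaphorins and pass the signal to A-type plexins or plexin D1, and they also bind vascular endothelial growth factors. The family is best known for repelling and attracting axons, and in the developing kidney Sema3a, Sema3c and the B-type plexins have been tied to branching of the ureteric bud.

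In the knockout ridges Sema6c fell to less than the wild type level on every array and Sema3c rose, while the other 29 members did not pass the test. The 2 calls are 6.45% of the family, beside 1.44% of all genes (0.362% higher and 1.08% lower), at a Benjamini-Hochberg adjusted p under 0.05 from limma's moderated test over all genes. The family was chosen with earlier results of these data known, so that share is a description only. The median log2 difference, taken as knockout less wild type throughout, was 0.05 over the family and -0.0005 over all genes. The knockout arrays lay wholly to 1 side of the wild type arrays for 7 members (22.6%), 4 above (Sema3b, Sema3c, Sema5a and Sema5b) and 3 below (Sema4g, Sema6c and Plxnb1), where over all genes 10.5% did so, 4.04% above and 6.47% below. An unadjusted p under 0.05 was found for 10 members (32.3%), beside 16.7% of all genes. A p that misses the threshold does not show that the genotypes were alike, so each such member is given with its 95% interval or its adjusted p.

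**Figure D1:**
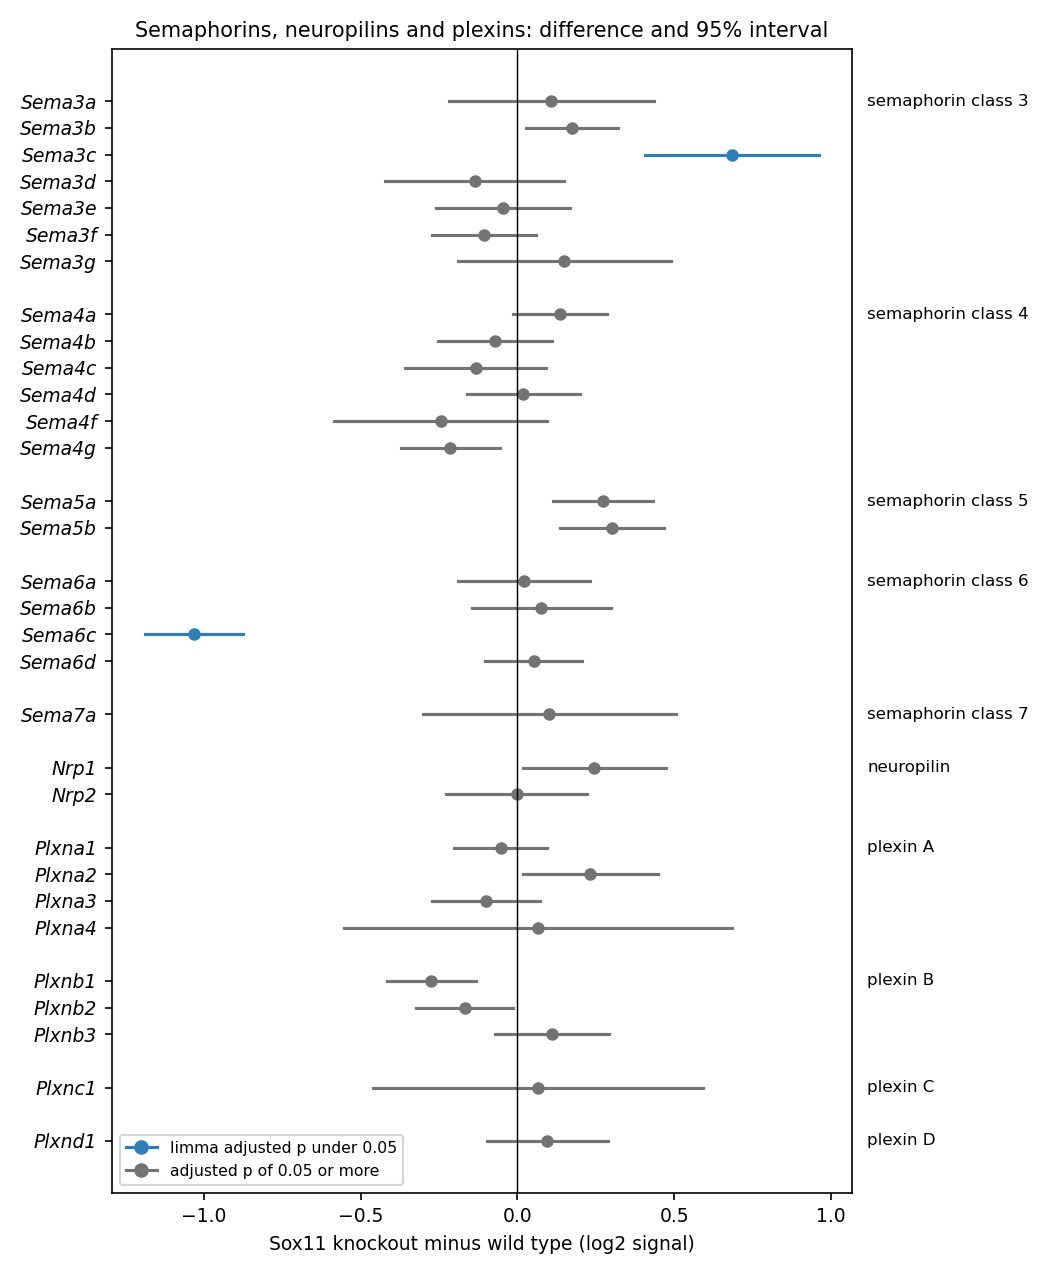
Difference of each of the 31 members (horizontal axis, Sox11 knockout minus wild type in log2 signal; points are limma estimates and lines their 95% intervals), grouped by class down the page. Sema6c at -1.03 and Sema3c at 0.68 are the members past the adjusted threshold, and the widest intervals are those of Plxna4 and Plxnc1.

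The sequences upstream of the starts of the 2 called genes are shown because these genes passed the test. RefSeq's table for GRCm38.p6 held 26 of the 31 genes, with 37 start sites, and the 250 bases upstream of each start were searched on both strands for ACAAAG and ACAATG, core letters bound by SOX proteins, which would be printed in capitals. Neither occurred in the 3 windows printed here, which run 5′ to 3′ on the plus strand: the windows of Sema6c at chr3:95160170-95160419 and chr3:95164089-95164338, and that of Sema3c at chr5:17574566-17574815.
Sema6c, upstream start: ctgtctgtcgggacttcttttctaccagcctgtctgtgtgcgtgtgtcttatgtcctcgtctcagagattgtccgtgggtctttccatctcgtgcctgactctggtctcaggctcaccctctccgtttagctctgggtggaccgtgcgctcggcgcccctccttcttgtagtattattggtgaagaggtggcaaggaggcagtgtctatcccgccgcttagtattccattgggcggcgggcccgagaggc
Sema6c, downstream start: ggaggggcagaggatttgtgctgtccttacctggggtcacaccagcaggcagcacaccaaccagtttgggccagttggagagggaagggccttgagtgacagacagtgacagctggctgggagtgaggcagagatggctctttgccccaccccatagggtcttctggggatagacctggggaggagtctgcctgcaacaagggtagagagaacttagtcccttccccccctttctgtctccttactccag
Sema3c: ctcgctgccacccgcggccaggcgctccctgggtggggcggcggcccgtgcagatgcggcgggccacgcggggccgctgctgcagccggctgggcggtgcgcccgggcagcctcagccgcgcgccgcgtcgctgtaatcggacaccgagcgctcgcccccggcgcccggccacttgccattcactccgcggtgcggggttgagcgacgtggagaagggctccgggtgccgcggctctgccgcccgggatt
The Sema3c window was 78.4% G and C, and the Sema6c windows 57.6% and 58.4%. At least 1 of the motifs stood in 8 of the family's 37 windows (21.6%) and in 25.2% of all 32851 windows of this length. The 8 windows belong to Sema3a, Sema3d, Sema4a, Sema4d, Sema4f, Sema6d, Plxnb3 and Plxnc1, and adjusted p-values for their genotype differences ran from 0.347 to 0.927. These letters are a description of the windows, and nothing about SOX11 binding follows from them.

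The targeted gene went with the labels, although nothing used here says whether its probes lie in the deleted part. Sox11 had a log2 signal of 9.24, 9.13, 8.93 and 9.12 in knockout ridges, against 11.76, 11.81, 11.72 and 11.86 in wild type ridges. It fell by 2.69 (SE 0.08, limma adjusted p = 6.36e-08). Over all genes 70 were higher and 209 lower in knockout, a split of 82 and 137 when arrays were centred on their medians. The arrays correlated at 0.987 to 0.995 across genes, which are not independent replicates. Y-linked genes gave signal on knockout replicates 3 and 4 and on wild type replicate 1, so the sexes were unevenly spread over the genotypes. Tissue markers gave signal in both genotypes, with a mean of 12 nephric duct markers between 9.51 and 9.59 in knockout and between 9.21 and 9.48 in wild type, and a mean of 10 metanephric mesenchyme markers between 9.91 and 10.01 in knockout and between 9.98 and 10.12 in wild type.

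Among the class 6 semaphorins, transmembrane proteins that signal through A-type plexins, Sema6c had a log2 signal of 7.31, 7.31, 7.40 and 7.46 in knockout ridges and of 8.33, 8.38, 8.53 and 8.36 in wild type ridges (probe set 10494174). The highest knockout array lay 0.87 below the lowest wild type array, and the replicates of a genotype stayed close together. The means were 7.37 ± 0.07 in knockout and 8.40 ± 0.09 in wild type ridges (SD, n = 4 each). The log2 difference of Sema6c was -1.03 (SE 0.07, 95% interval -1.19 to -0.88), a level 2.04-fold lower in knockout, and it passed limma, adjusted p = 0.000242. Of the 19356 genes only Sox11 had a lower p-value. The call held under each of the 20 other settings tried, with adjusted p-values from 8.69e-05 to 0.0171 and differences from -1.11 to -0.99. The difference was -1.11 between the 2 knockout and 3 wild type arrays without Y-linked signal, and -0.90 between the 2 knockout arrays and the single wild type array with it.

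The other class 6 genes were close to 0. Sema6d, a ligand of plexin A1, had 9.97, 9.87, 9.78 and 9.93 in knockout ridges against 9.76, 9.93, 9.87 and 9.78 in wild type ridges, a difference of 0.05 (95% interval -0.10 to 0.21). Sema6a, a ligand of plexins A2 and A4, had 11.20, 11.32, 11.44 and 10.98 in knockout ridges against 11.29, 11.20, 11.23 and 11.14 in wild type ridges. Its genotypes overlapped, and the difference of 0.02 (95% interval -0.19 to 0.23) had a limma adjusted p of 0.936. Sema6b, a ligand of plexin A4, averaged 7.10 ± 0.10 in knockout and 7.03 ± 0.19 in wild type ridges (SD, n = 4 each), a difference of 0.08 (95% interval -0.15 to 0.30). Its other probe set, of lower signal, differed by 0.05. The intervals of these 3 genes do not reach the change of Sema6c, although no test between the genes was made.

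Among the secreted class 3 semaphorins, Sema3c, which signals through neuropilins with plexin D1 or A-type plexins and is known for its part in outflow tract and vessel formation, had 10.579, 10.486, 10.858 and 10.889 in knockout ridges. In wild type ridges it had 10.298, 9.762, 10.016 and 10.004. Every knockout array lay above every wild type array, by at least 0.19. Within each genotype the arrays with Y-linked signal were the highest. Sema3c averaged 10.70 ± 0.20 in knockout and 10.02 ± 0.22 in wild type ridges (SD, n = 4 each) and so rose by 0.68 (SE 0.13, 95% interval 0.41 to 0.96), which is 1.61-fold, with a limma adjusted p of 0.0289. With Y-linked signal entered as a covariate the difference was 0.60 (limma adjusted p = 0.00893). The difference was 0.61 between the 2 knockout and 3 wild type arrays without Y-linked signal. Between the 2 knockout arrays and the single wild type array with it, the difference was 0.58. The size of the difference moved little when 1 array was left out (0.60 to 0.78), whereas the call depended on which array it was. It held without knockout replicate 2 (limma adjusted p = 0.0298) or wild type replicate 1 (0.0187), and it was lost without each of the other 6 arrays. Those adjusted p-values were 0.0632, 0.0838 and 0.0933 without knockout replicates 1, 3 and 4, and 0.0717, 0.0670 and 0.0593 without wild type replicates 2, 3 and 4. A linear model without moderation gave an adjusted p of 0.132, and the 5 arrays without Y-linked signal 0.145.

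The other class 3 genes did not pass. Sema3b, which acts through neuropilins, had 7.80, 7.74, 7.69 and 7.65 in knockout ridges against 7.53, 7.64, 7.56 and 7.46 in wild type ridges. The groups were apart by 0.01 only, and the difference of 0.17 (SE 0.07) had a limma adjusted p of 0.226. Sema3a, the founding repellent of the class, which acts through neuropilin 1, had 9.18, 8.92, 9.54 and 9.23 in knockout ridges against 8.76, 9.14, 9.37 and 9.16 in wild type ridges. Its groups overlapped, at a difference of 0.11 (95% interval -0.22 to 0.44). Sema3d and Sema3e lie on the same chromosome as Sema3a and Sema3c, chromosome 5, and were at -0.14 (95% interval -0.42 to 0.15) and -0.05 (-0.26 to 0.17). Sema3e is the class 3 member that binds plexin D1 without a neuropilin. Sema3f, a ligand of neuropilin 2, averaged 9.88 ± 0.05 in knockout and 9.98 ± 0.12 in wild type ridges (SD, n = 4 each), at -0.11 (95% interval -0.27 to 0.06). Sema3g, a ligand made by arterial endothelium, was at 0.15 (95% interval -0.19 to 0.49). The class as a whole had 4 members above and 3 below 0, with a median difference of 0.11.

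The class 5 semaphorins, transmembrane proteins with thrombospondin repeats, both lay higher without passing. Sema5a had 10.77, 10.72, 10.93 and 10.78 in knockout ridges against 10.63, 10.55, 10.48 and 10.45 in wild type ridges. Sema5b had 8.13, 8.25, 8.25 and 8.27 in knockout ridges against 8.04, 8.02, 7.81 and 7.83 in wild type ridges. Neither gene's groups overlapped. The differences were 0.27 (SE 0.07, 1.21-fold, limma adjusted p = 0.0968) for Sema5a and 0.30 (SE 0.07, 1.23-fold, limma adjusted p = 0.0837) for Sema5b. At the threshold of 0.05, Sema5b passed after a further quantile normalization (limma adjusted p = 0.0452) and among genes above the median level (0.0465). Sema5a passed 0.05 under none of the 20 settings, with 0.0510 as its lowest value.

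**Figure D2:**
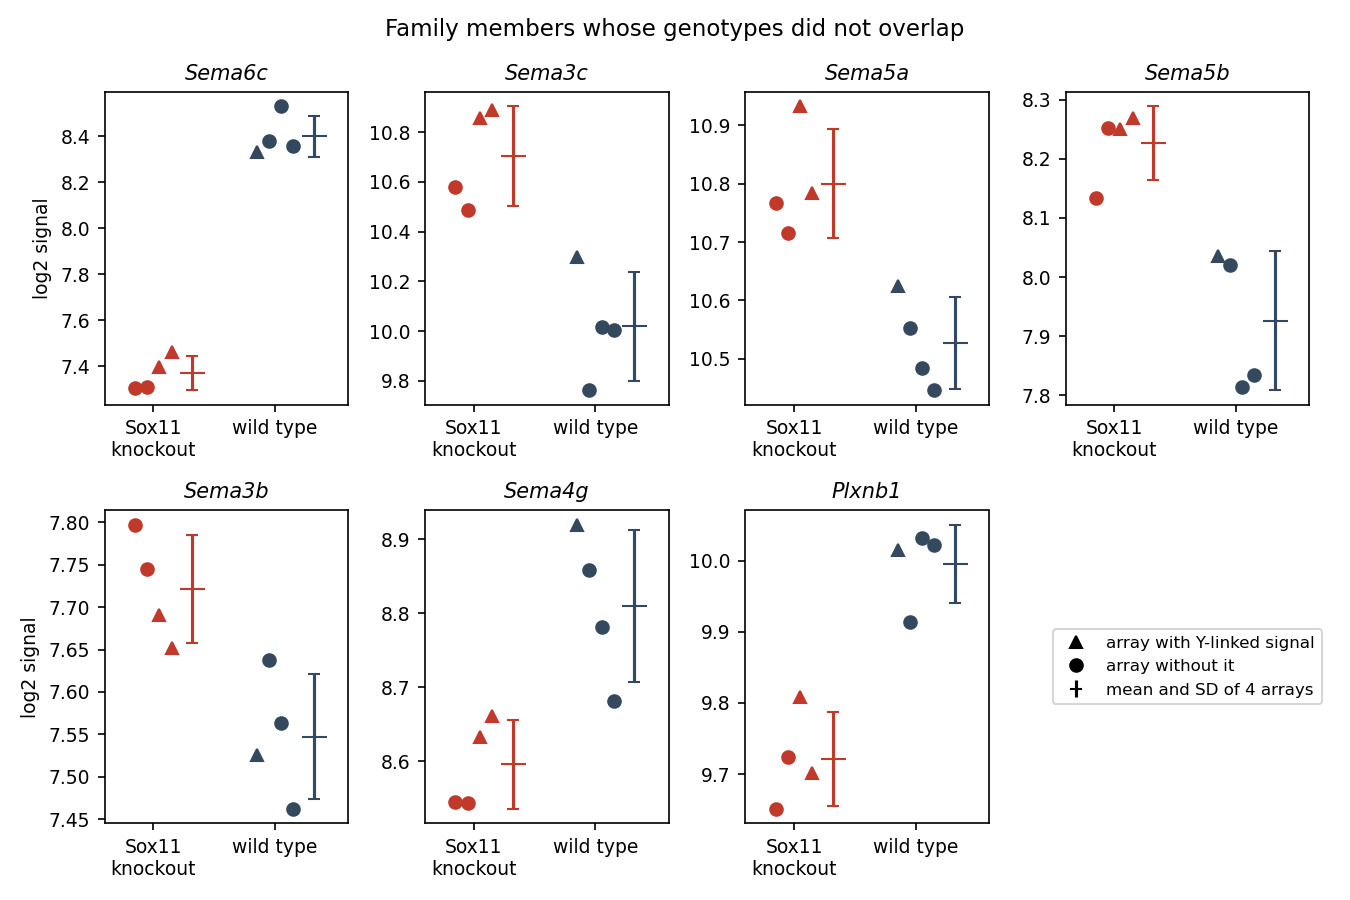
Log2 signal (vertical axis, own range in each panel) on every array for the 7 members whose 4 Sox11 knockout arrays did not overlap the 4 wild type arrays; triangles are arrays with Y-linked signal, circles arrays without it, and bars the mean and SD. Sema6c shows the widest gap, 7.31 to 7.46 in knockout against 8.33 to 8.53 in wild type, and in Sema3c the triangles are the highest points of each genotype.

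The class 4 semaphorins are membrane proteins that signal mainly through B-type plexins and in part through immune receptors. They had 2 members above and 4 below 0, with a median of -0.10. The limma threshold was passed by 0 of 6, beside 1.44% of all genes. An unadjusted p under 0.05 was found for 1 of 6 (Sema4g), which is 16.7%, the same share as over all genes. Sema4g had 8.55, 8.54, 8.63 and 8.66 in knockout ridges against 8.92, 8.86, 8.78 and 8.68 in wild type ridges. Its groups did not overlap, the closest arrays being 0.02 apart, and the difference of -0.21 (SE 0.07) had a limma adjusted p of 0.173. Sema4c, a ligand of plexin B2, had 9.30, 9.50, 9.73 and 9.58 in knockout ridges against 9.85, 9.59, 9.67 and 9.53 in wild type ridges. These values overlapped, at -0.13 (95% interval -0.36 to 0.09). Sema4d, the ligand of plexin B1, averaged 7.99 ± 0.05 in knockout and 7.97 ± 0.15 in wild type ridges (SD, n = 4 each), at 0.02 (95% interval -0.16 to 0.20), and its other probe set, of lower signal, was at 0.18 (limma adjusted p over all probe sets 0.273). Sema4a, known as a ligand on immune cells and in the retina, was at 0.14 (95% interval -0.02 to 0.29), Sema4b at -0.07 (-0.25 to 0.11) and Sema4f at -0.24 (-0.59 to 0.10). Sema7a, the lipid-anchored ligand of plexin C1 and of beta-1 integrins, had 7.31, 6.94, 6.49 and 6.84 in knockout ridges against 6.71, 7.25, 6.60 and 6.61 in wild type ridges, with overlapping groups and a difference of 0.10 (95% interval -0.30 to 0.50). In all, 7 members (Sema3e, Sema3g, Sema4a, Sema4f, Sema6b, Sema7a and Plxnb3) had a mean signal under the median of all genes, 7.55, as did the knockout mean of Sema6c. How far background signal narrows differences at such levels was not tested.

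Neither neuropilin passed. Nrp1, the receptor of Sema3a that Sema3c also uses, had 11.70, 11.58, 11.73 and 11.69 in knockout ridges against 11.58, 11.61, 11.13 and 11.40 in wild type ridges. The wild type arrays were more spread, the groups overlapped, and the difference of 0.24 (SE 0.10, 95% interval 0.02 to 0.47) had a limma adjusted p of 0.264. Nrp2, which binds Sema3f and Sema3c, had a mean of 9.11 ± 0.17 in knockout and 9.11 ± 0.14 in wild type ridges (SD, n = 4 each), and its interval ran from -0.23 to 0.22.

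The A-type plexins are those through which class 3 semaphorins act with neuropilins and class 6 semaphorins act directly. Of these, 0 of 4 passed the limma threshold, beside 1.44% of all genes. An unadjusted p under 0.05 was found for 1 of 4 (Plxna2), which is 25%, beside 16.7% of all genes. Plxna1, the receptor known for Sema6c and Sema6d, had 10.66, 10.74, 10.74 and 10.70 in knockout ridges against 10.63, 10.82, 10.84 and 10.76 in wild type ridges. Beside the fall of its ligand gene Sema6c it differed by -0.05 (SE 0.07, 95% interval -0.20 to 0.09). Plxna2 had 10.861, 11.203, 11.129 and 11.092 in knockout ridges against 11.045, 10.857, 10.700 and 10.753 in wild type ridges. Knockout replicate 1 lay within the wild type range, and the difference of 0.23 (SE 0.10) had a limma adjusted p of 0.263. Plxna3, a partner of neuropilin 2 in Sema3f signalling, was at -0.10 (95% interval -0.27 to 0.07).

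Plxnb1, the receptor of Sema4d, had 9.65, 9.72, 9.81 and 9.70 in knockout ridges against 10.02, 9.91, 10.03 and 10.02 in wild type ridges. All knockout arrays lay below all wild type arrays. The difference was -0.27 (SE 0.06, 1.21-fold lower), at limma adjusted p = 0.0695. It passed under 3 of the 20 settings, when genes under the 25th percentile of level were dropped (limma adjusted p = 0.0499), when those under the median level were dropped (0.0334), and under trended and robust moderation (0.0372). Plxnb2, the receptor of Sema4c, had 11.50, 11.42, 11.54 and 11.61 in knockout ridges against 11.58, 11.70, 11.78 and 11.67 in wild type ridges. The groups overlapped through knockout replicate 4 and wild type replicate 1, and the difference of -0.17 (SE 0.07) had a limma adjusted p of 0.262. Plxnb3, for which Sema5a is a known ligand, averaged 6.83 ± 0.13 in knockout and 6.72 ± 0.10 in wild type ridges (SD, n = 4 each), at 0.11 (95% interval -0.07 to 0.29).

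Plxnd1, the receptor of vascular endothelium for Sema3e and, with neuropilins, for Sema3c, had 11.32, 11.23, 11.21 and 11.19 in knockout ridges against 11.02, 11.34, 11.22 and 10.99 in wild type ridges. Its groups overlapped at a difference of 0.10 (95% interval -0.10 to 0.29). In the same arrays 0 of 12 endothelial markers passed the limma threshold, beside 1.44% of all genes. An unadjusted p under 0.05 was found for 0 of them, beside 16.7% of all genes. Their median difference was 0.07, with list means of 9.19 to 9.49 in knockout and 9.11 to 9.39 in wild type ridges.

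The largest spread within a genotype among the 31 members was in Plxna4 and Plxnc1. Plxna4, a receptor for Sema3a and class 6 semaphorins in neurons, had 8.72, 7.96, 8.62 and 9.10 in knockout ridges against 8.19, 8.49, 9.32 and 8.14 in wild type ridges. Plxnc1, the receptor of Sema7a, had 8.868, 7.998, 8.923 and 9.230 in knockout ridges against 8.614, 8.411, 9.128 and 8.607 in wild type ridges. In both genes knockout replicate 2 was the lowest of the 8 arrays, and knockout replicate 4 and wild type replicate 3 were the highest. The SDs were 0.48 in knockout and 0.54 in wild type for Plxna4, and 0.53 in knockout and 0.31 in wild type for Plxnc1, against a median within-genotype SD of 0.12 over all genes, so that the genotype differences of 0.07 and 0.06 had intervals from -0.55 to 0.68 and from -0.46 to 0.59. The mean of 7 coelomic epithelium and gonad markers was 8.15, 7.04, 7.70 and 8.23 on the knockout arrays and 7.35, 7.67, 8.13 and 7.97 on the wild type arrays, also lowest in knockout replicate 2. That list had 4 genes above and 3 below 0, a median difference of 0.06 and 0 called by limma. An unadjusted p under 0.05 was found for 1 of its genes (14.3%, beside 16.7% of all genes). Among the wild type arrays the mean of that list was lowest in replicate 1, Plxna4 in replicate 4 and Plxnc1 in replicate 2. The mean of 12 neuron markers was also the lowest of the 8 arrays in knockout replicate 2, at 7.39. That neuron mean was highest in wild type replicate 2, at 7.95, and lowest of the wild type arrays in replicate 3. The part of either marker list in the 2 plexins was not tested.

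**Figure D3:**
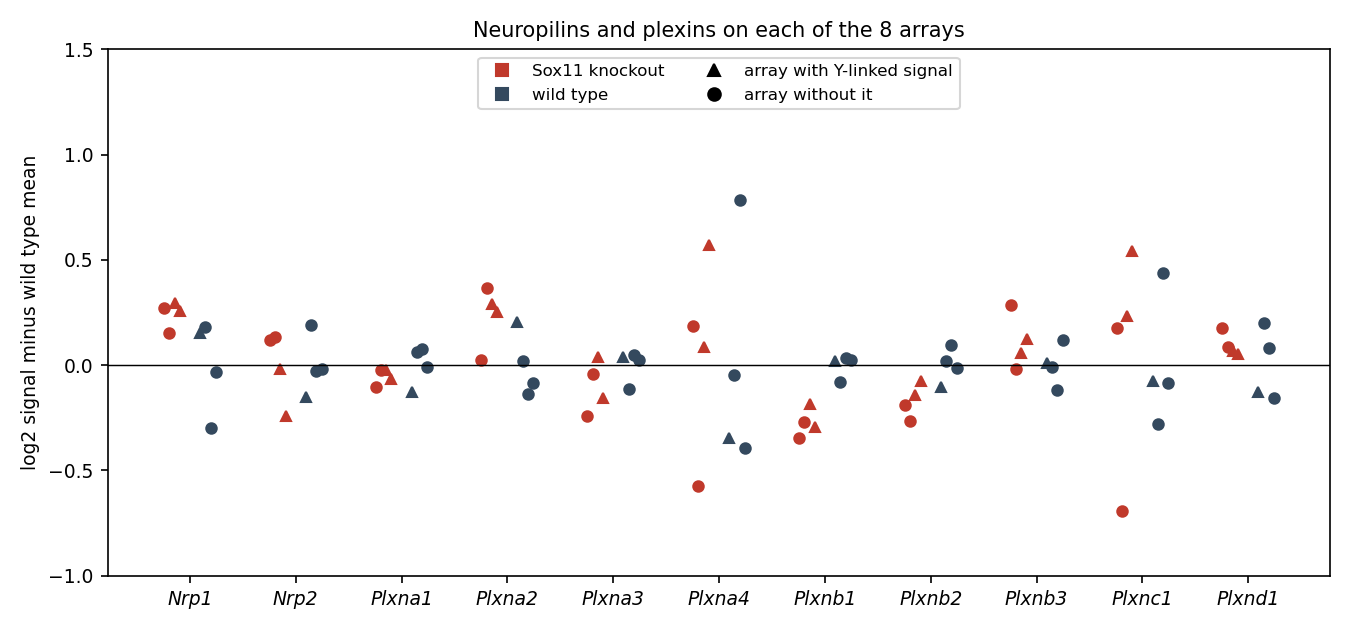
Log2 signal of each neuropilin and plexin minus its wild type mean (vertical axis) on each array, with Sox11 knockout arrays to the left of wild type arrays; triangles are arrays with Y-linked signal. All 4 Plxnb1 knockout points lie under its wild type points, whereas Plxna4 and Plxnc1 spread widely in both genotypes.

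Of 62 listed partner genes of the family, 60 were measured, and 3 were lower and 0 higher past the limma threshold over all genes, with 4 higher and 7 lower at an unadjusted p under 0.05. The 3 calls are 5% of the partners, beside 1.44% of all genes, and the 11 at an unadjusted p under 0.05 are 18.3%, beside 16.7% of all genes and so close to that share. The partner list was drawn up with earlier results of these data known, so its share of calls is a description and not a test. All 3 called partners lay among 33 intracellular effectors of plexins, of which 11 were above and 22 below 0 with a median of -0.07. They encode collapsin response mediator proteins, a family with members that pass the Sema3a signal to the microtubules of growing axons. Dpysl5 had 7.14, 7.21, 6.93 and 6.81 in knockout ridges against 8.24, 8.36, 8.29 and 8.02 in wild type ridges. Crmp1 had 9.76, 9.89, 9.80 and 9.41 in knockout ridges against 10.33, 10.49, 10.46 and 10.45 in wild type ridges. Dpysl4 had 7.54, 7.75, 7.75 and 8.24 in knockout ridges against 8.83, 9.12, 9.01 and 8.48 in wild type ridges. The genotypes were apart in all 3 genes, most closely in Dpysl4, where knockout replicate 4 and wild type replicate 4 approached each other. Log2 signal fell by 1.20 in Dpysl5 (limma adjusted p = 0.000453), by 0.71 in Crmp1 (0.00700) and by 1.04 in Dpysl4 (0.0148). Without wild type replicate 2 Dpysl4 missed the threshold (limma adjusted p = 0.0518), as it did with the replicate number as a block (0.0575), and Crmp1 and Dpysl4 missed it without moderation (0.0774 and 0.113). The relatives Dpysl2 and Dpysl3 differed by -0.07 and -0.12 without passing.

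Other effectors did not pass. The kinase gene Fyn and the Cdk5 activator gene Cdk5r1, both of Sema3a signalling, were at -0.22 and -0.18, and the GTPase gene Rnd2 at -0.33, with limma adjusted p-values of 0.150, 0.214 and 0.263. Among 18 receptor partners 13 were above 0, with a median of 0.09 and 0 called by limma. At an unadjusted p under 0.05, 4 were higher (22.2%, beside 16.7% of all genes). These were the proteoglycan gene Cspg4 at 0.43, the collagen-binding integrin gene Itga1 at 0.43 and the adhesion genes Chl1 at 0.39 and Cntn2 at 0.22 (limma adjusted p = 0.0745, 0.210, 0.226 and 0.175). Leaving out wild type replicate 2 brought Cspg4 past the threshold (limma adjusted p = 0.0273). The 9 other listed partners of neuropilins were vascular endothelial growth factors, their receptors and Gipc1. Of these, 6 were above 0 with a median of 0.04, and 0 were called by limma. Flt4 was lower at an unadjusted p under 0.05 (-0.23, limma adjusted p = 0.240), which is 11.1% of this list, beside 16.7% of all genes.

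**Figure D4:**
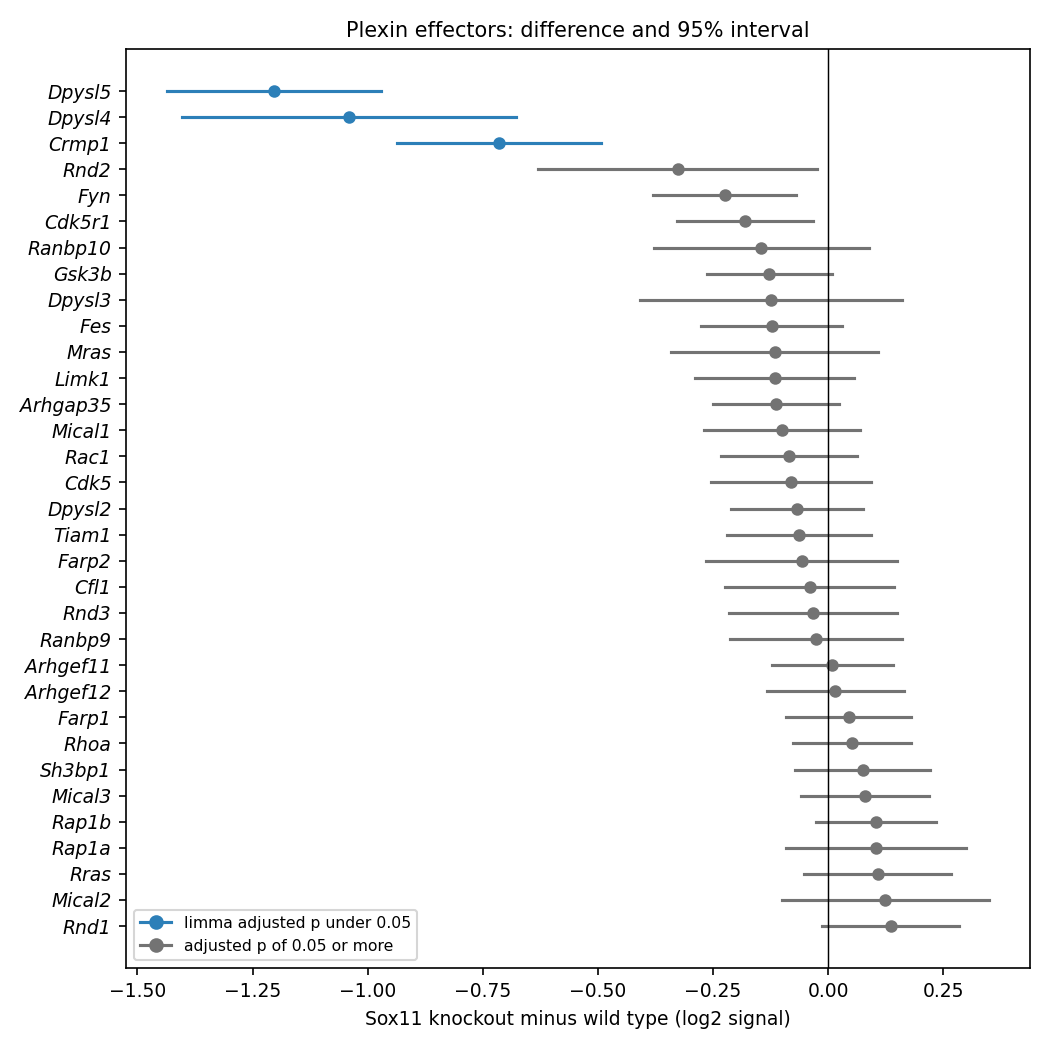
Difference of each of the 33 measured plexin effectors (horizontal axis, Sox11 knockout minus wild type in log2 signal, with 95% intervals), sorted from the lowest. Dpysl5, Dpysl4 and Crmp1, at -1.20, -1.04 and -0.71, stand apart at the low end.

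Neurons express many of these genes, and of 12 neuron markers 11 were below 0 in the same arrays, with a median of -0.24, and the list mean was 7.39 to 7.75 in knockout against 7.68 to 7.95 in wild type ridges. Their differences ran from -0.93 to 0.26, and 6 of the 12 had a mean signal under the median of all genes, 7.55. Dcx, a microtubule protein of young neurons, was the marker called by limma, at -0.93 (adjusted p = 0.0384). That call is 8.33% of the list, beside 1.44% of all genes. At an unadjusted p under 0.05, 4 neuron markers were lower (33.3%, beside 16.7% of all genes). Of 6 measured neural crest and Schwann precursor markers 4 were above 0 with a median of 0.16, and list means were 8.08 to 8.24 in knockout and 8.10 to 8.27 in wild type ridges. Erbb3, a receptor of Schwann precursors, rose by 0.36 (limma adjusted p = 0.0417), while the neurotrophin receptor gene Ngfr and the crest factor gene Foxd3 were at -0.46 and -0.48 without passing (limma adjusted p = 0.0931 and 0.229). At an unadjusted p under 0.05 this list had 1 gene higher and 2 lower, which is 50% beside 16.7% of all genes. Its 1 gene called by limma is 16.7% of the list, beside 1.44% of all genes. Erythroid markers were below 0 in 9 of 10, with a median of -0.27 and means of 8.59 to 8.91 in knockout against 8.65 to 9.27 in wild type ridges, and striated muscle markers above 0 in 9 of 10, with a median of 0.19 and means of 7.18 to 7.45 in knockout against 7.05 to 7.19 in wild type ridges. A mean signal under the median of all genes was found for 8 of the 10 muscle markers and 5 of the 10 erythroid markers. Neither list had a gene called by limma, and each had 5 at an unadjusted p under 0.05 (50%, beside 16.7% of all genes). Of the nephric duct markers 10 of 12 were above 0 with a median of 0.18 and Ret called higher, and of the metanephric mesenchyme markers 6 of 10 were below 0 with a median of -0.13 and Six2 called lower. These calls are 8.33% and 10% of their lists, beside 1.44% of all genes. At an unadjusted p under 0.05, 5 duct markers were higher (41.7%) and 4 mesenchyme markers lower (40%), beside 16.7% of all genes. The part of these cells in the changes of Sema6c, Sema3c and the effectors was not tested, and in RNA from whole tissue fewer cells of a type and less RNA per cell cannot be told apart.

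**Figure D5:**
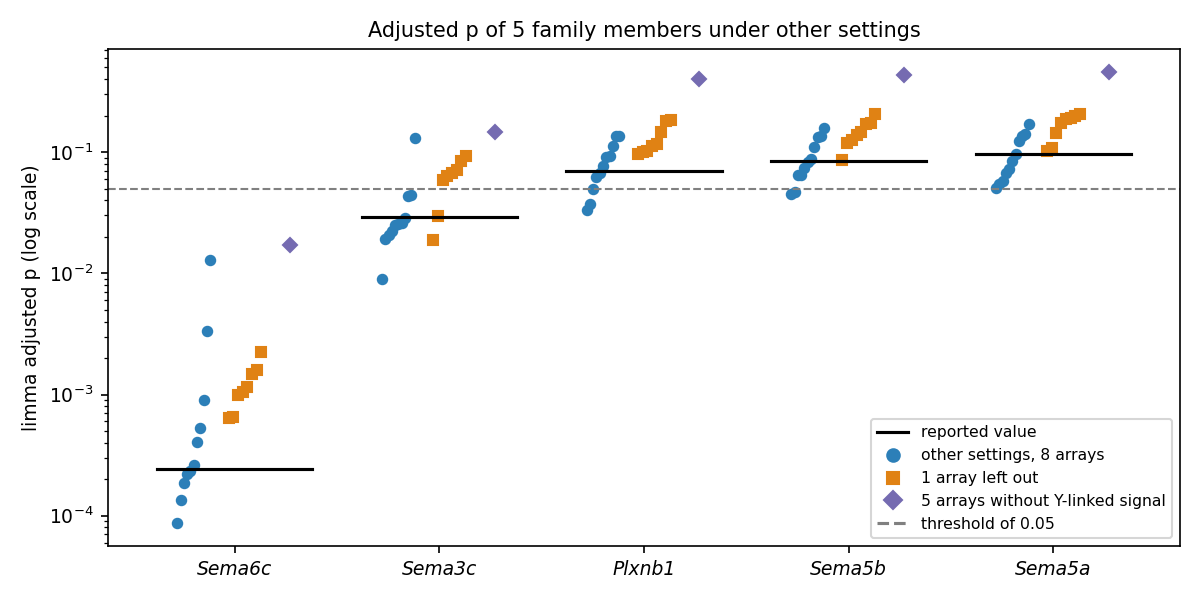
Limma adjusted p (vertical axis, log scale) of the 2 called members and the next 3 under other settings on 8 arrays (circles), with 1 array left out (squares) and on the 5 arrays without Y-linked signal (diamonds); black lines are the reported values and the dashed line is 0.05. Sema6c stays under the threshold throughout, with 0.0171 as its highest value, whereas the values of Sema3c lie on both sides of it.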

How the data were processed

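Per the labels' protocols, total RNA of 8 samples, 4 per genotype, went through ribosomal RNA reduction, Affymetrix WT cDNA synthesis and amplification, and biotin labelling. The authors deposited RMA signals on the log2 scale, 1 value per array for 27478 probe sets (RMA and Partek are in the submitters' processing notes; their versions and settings, and the genome build, are not stated there). The scale was read from the values, which span 4.30 to 14.62. RMA gives all arrays nearly the same distribution and cannot show a shift of every transcript. The number of arrays limits the precision. Each limma p-value sets a genotype difference against the spread between these samples only, moderated over all genes.

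In the platform annotation 21103 probe sets had 1 symbol and were used, 1531 had several and 4844 had none. RefSeq changed 0 symbols. The family had 33 probe sets, with Sema4d and Sema6b on more than 1. Signals of different probe sets are not read as relative amounts of transcript. The test was limma's lmFit and eBayes (version 3.58.1, R 4.3.3), two-sided, with p-values adjusted over all genes, and it was tested on simulated data. Replicates carry the numbers 1 to 4 in both genotypes, with no statement of what a number shares.

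Members and gene lists were chosen with earlier results of these data known. Values per array were given for members past the threshold, with an unadjusted p under 0.05, with groups that did not overlap or with the highest mean of their class, and for relatives of called members. Per-array values of Plxna1 and Plxna4 were added after they were seen, as were the promoter windows. Alternatives were 2 normalizations, filters on level, all probe sets or their mean, other moderation, array weights, the replicate block, the Y-linked signal, a threshold of 0.10, and leaving out each array. The 20 settings named for single genes leave out the threshold of 0.10 and include the fit on the 5 arrays without Y-linked signal. Figures were drawn with matplotlib 3.10.9.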

Additional observations from a re-analysis of the deposited data

Results flagged for a closer look

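Single arrays stood apart from the other 3 of their genotype in 5 of 62 groups of member values by Dixon's test, which chance does in about 1 of 20 groups. Plxnb1 had 9.91 on wild type replicate 2, below 10.02 to 10.03 on the others. Plxna3 had 9.04 on the same array, below 9.18 to 9.20. Sema7a had 7.25 on the same array, above 6.60 to 6.71. Sema5b had 8.13 on knockout replicate 1, below 8.25 to 8.27. Sema4d had 8.06 on knockout replicate 3, above 7.96 to 7.97. Among partner genes only the 11 with an unadjusted p under 0.05 were checked, in 22 groups. A single array stood apart in 1 of these: Cdk5r1 had 6.94 on wild type replicate 3, above 6.83 to 6.84. No explanation was tested.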

How the results depend on the processing

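The count of 279 genes past limma's threshold was 55 without moderation, 166 with the replicate block, 148 with Y-linked signal entered as a covariate, 683 at a threshold of 0.10 and 107 to 243 when 1 array was left out. The family count of 2 was 4 with genes above the median level, 1 without moderation, 5 at a threshold of 0.10 and 1 to 2 when 1 array was left out. The partner count of 3 was 1 without moderation, 2 with the replicate block and 3 in each leave-one-out fit, although without wild type replicate 2 the 3 were 1 higher and 2 lower, with Cspg4 gained (limma adjusted p = 0.0273) and Dpysl4 lost (0.0518). The 5 arrays without Y-linked signal, a choice made after seeing the data, left 30 genes, 1 family member and 1 partner. The same-numbered replicates deviated together at correlations of -0.17 to 0.09, which does not settle whether same-numbered samples share a litter or day, and the replicate block changed no call among the members.

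Among the members, 9 that had not passed changed sign under at least 1 setting, each time without passing. Nrp2 had limma adjusted p-values of 0.909 with arrays centred on their medians, 0.862 after a further quantile normalization, 0.798 with Y-linked signal entered as a covariate, and 0.780 to 0.993 over all 8 fits with 1 array left out. Plxnc1 had 0.990 with that covariate. Array weights gave 0.964 for Sema4d and 0.997 for Sema6a. On the arrays without Y-linked signal the values were 0.852 for Nrp2, 0.799 for Plxna4, 0.775 for Plxnc1, 0.669 for Sema3a and 0.993 for Sema4f. Over all 8 fits with 1 array left out, those that kept the sign included, the values ran from 0.526 to 0.981 for Plxna4, 0.351 to 0.991 for Plxnc1, 0.486 to 0.997 for Sema3a, 0.675 to 0.987 for Sema4d, 0.644 to 0.984 for Sema6a, 0.367 to 0.995 for Sema6b and 0.510 to 0.948 for Sema7a. The causes were not tested. Signal over background was not given with the arrays, so the 7 members of low signal have no stated detection limit.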
